A study of Homo sapiens with 10 samples.

Results

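The enzymes that remove superoxide and hydrogen peroxide were described by 10 genes, chosen by name: the superoxide dismutases SOD1, SOD2 and SOD3, catalase (CAT), the peroxiredoxins PRDX1, PRDX2, PRDX3, PRDX5 and PRDX6, and the glutathione peroxidase GPX4. All 10 had a row among the 57353 gene symbols of the count table, and all 10 were among the 17230 genes with enough counts to be tested. RNA was sequenced in 10 samples of LNCaP-C4-2, a castration-resistant line derived from a human prostate cancer, in which CPT1A, the enzyme that commits long-chain fatty acids to mitochondrial oxidation, was lowered or raised with lentiviruses. In the knockdown arm, selected with puromycin, 2 samples carried a control shRNA (NT) and 3 carried 1 shRNA against CPT1A (KD). In the over-expression arm, selected with blasticidin, 2 samples carried an empty vector (EV) and 3 carried a CPT1A cDNA (OE). All 4 groups thus hold a lentivirus and a selection drug, and between the arms the virus, the drug and the direction of CPT1A cannot be told apart. One line of each kind was described, and no source used here says that the samples of a group were separate transductions, so p-values measure only the spread between these samples, which may be technical.

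Superoxide leaks mainly from the mitochondrial respiratory chain, and superoxide dismutases turn it into hydrogen peroxide. Catalase in peroxisomes, peroxiredoxins and glutathione peroxidases then reduce hydrogen peroxide or lipid peroxides. Most peroxiredoxins take electrons from thioredoxin, and GPX4 takes them from glutathione. The compartments are served by separate genes. SOD2 and PRDX3 act in the mitochondrial matrix and PRDX5 mainly in mitochondria, with some in peroxisomes and the cytosol, and these 3 genes were taken as mitochondrial. SOD1 (cytosol and intermembrane space), PRDX1, PRDX2 and PRDX6 (cytosol), CAT (peroxisomes) and SOD3 (secreted) were taken as the 6 genes of other compartments, and GPX4, which has mitochondrial, cytosolic and nuclear forms, was kept apart.

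The mitochondrial genes were compared with those of other compartments, and the 250 bases before 1 start site of each are printed here so that their promoters can be set side by side. They are from RefSeq on GRCh38.p14, on the gene's own strand, 5′ to 3′, and capitals mark the letters GGGCGG or their complement CCGCCC, the core of a GC box to which SP1 binds. The SOD2 window was chr6:159693242-159693491 on the minus strand, the PRDX3 window chr10:119178813-119179062 on the minus strand and the PRDX5 window chr11:64317871-64318120 on the plus strand.
SOD2: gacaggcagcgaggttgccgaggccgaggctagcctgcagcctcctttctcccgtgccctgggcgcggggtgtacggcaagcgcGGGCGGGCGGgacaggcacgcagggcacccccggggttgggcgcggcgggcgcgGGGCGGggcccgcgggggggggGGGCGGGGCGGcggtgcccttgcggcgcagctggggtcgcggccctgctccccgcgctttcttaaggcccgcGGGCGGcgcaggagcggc
PRDX3: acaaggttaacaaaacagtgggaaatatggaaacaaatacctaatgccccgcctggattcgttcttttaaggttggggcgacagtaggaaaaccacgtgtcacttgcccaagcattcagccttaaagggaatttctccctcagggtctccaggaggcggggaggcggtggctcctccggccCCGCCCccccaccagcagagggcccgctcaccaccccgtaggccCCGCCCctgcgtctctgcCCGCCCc
PRDX5: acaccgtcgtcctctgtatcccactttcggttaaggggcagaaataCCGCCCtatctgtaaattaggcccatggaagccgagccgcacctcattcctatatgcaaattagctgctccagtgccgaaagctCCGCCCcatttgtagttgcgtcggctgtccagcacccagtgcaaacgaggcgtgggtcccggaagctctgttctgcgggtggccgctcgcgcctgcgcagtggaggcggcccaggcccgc

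These letters occurred 6 times before SOD2, 3 times before PRDX3 and 2 times before PRDX5, with overlapping matches counted, in windows with a GC content of 80.8%, 60.4% and 60.8%. The other 3 start sites of SOD2 had 4, 1 and 1 matches and the other start site of PRDX5 had 1, so the printed windows hold the most of each gene. Of 35116 promoter windows of the same length, 42.6% held the letters at least 1 time and 2.22% at least 6 times. RefSeq windows were used for 7 of the 10 genes, all but SOD1, PRDX1 and PRDX6, with 13 start sites in all. The letters were found in 12 of the 13, the exception being SOD3. These windows are not separate promoters, since SOD2, GPX4 and PRDX5 each have several. Windows of GPX4 overlap, so that the same match is counted again. The core of the antioxidant response element, TGACNNNGC on either strand, which NRF2 binds, was in 0 of the 13 windows when 50 bases after the start were added, against 13.3% of all windows. A match is a run of letters only, and nothing about a factor follows from its presence or absence in these windows.

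Counts per sample ranged from 23555205 to 28615770, and levels are given as CPM, counts scaled to library size with TMM factors. CPT1A was 266 and 262 CPM in NT against 81.3, 86.4 and 86.2 in KD, and 326 and 318 CPM in EV against 870, 914 and 861 in OE, as the labels have it. The prostate luminal genes KLK3, KLK2, FOLH1, HOXB13, TMPRSS2, KRT8 and KRT18 all lay at 322 CPM or more in every sample. PECAM1 and KRT5 had 0 counts in every sample, PTPRC and TP63 at most 1 count, COL3A1 2 to 54 counts and COL1A1 217 to 440 counts.

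Each comparison used the quasi-likelihood test of edgeR in 1 model of the 10 samples, with p-values adjusted by Benjamini-Hochberg over the 17230 genes, and a gene is called at an adjusted p under 0.05. In these bulk samples fewer cells with a transcript and less of it per cell cannot be told apart. With OE against EV, SOD2 and PRDX3 of the mitochondrial matrix and cytosolic PRDX1 fell, while SOD3, PRDX2 and GPX4 rose. Thus 3 of 10 were called higher and 3 lower, where 25.6% of all tested genes were called higher and 26.4% lower. The median log2 fold change was 0.02 over the 10 enzymes and -0.02 over all genes. With library size in place of TMM, the median of all genes moved to -0.12 for OE against EV, and 36.5% of the called genes were higher in place of 49.3%.

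With KD against NT, SOD3, PRDX2 and PRDX3 rose, while PRDX5, CAT and SOD1 fell. Again 3 of 10 were called higher and 3 lower, against 29.1% and 28.4% of all tested genes, and the median was 0.08 over the enzymes and -0.02 over all genes. The difference between both arms, taken as the interaction (OE against EV minus KD against NT), was called for 7 of the 10. It was above 0 for PRDX5, CAT and GPX4, where 20.3% of all genes were called higher, and below 0 for PRDX3, SOD3, SOD2 and PRDX1, where 24% were called lower. By library size alone the median of all genes in the interaction was -0.15 in place of -0.02, and 30.7% of the called genes were above 0 in place of 45.8%. In each direction the share of enzymes called was of the order of the share among all genes in both arms.

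**Figure D1:**
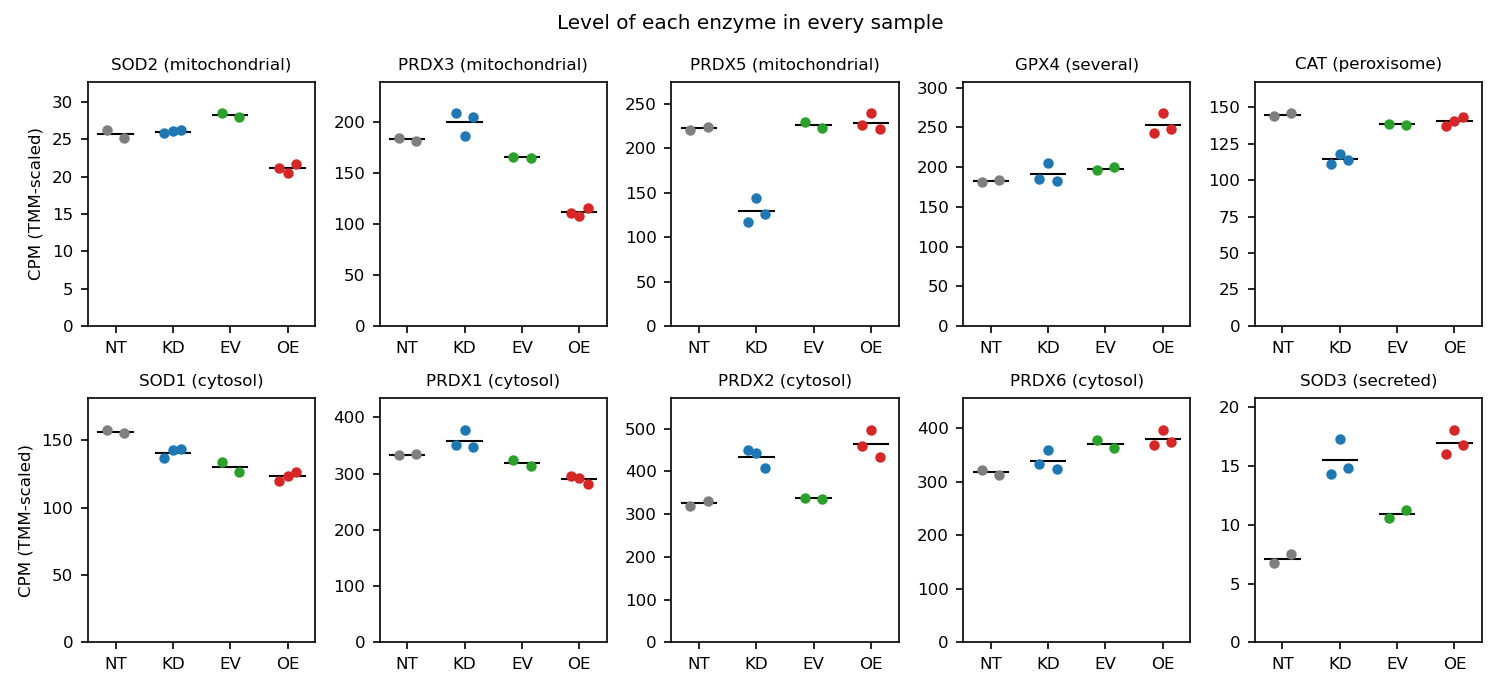
TMM-scaled CPM (vertical axes, from 0) of each of the 10 enzymes in the 2 NT, 3 KD, 2 EV and 3 OE samples. Points are samples and black lines group means. SOD2 and PRDX3 stood lowest in the 3 OE samples and PRDX5 and CAT lowest in the 3 KD samples.

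**Figure D2:**
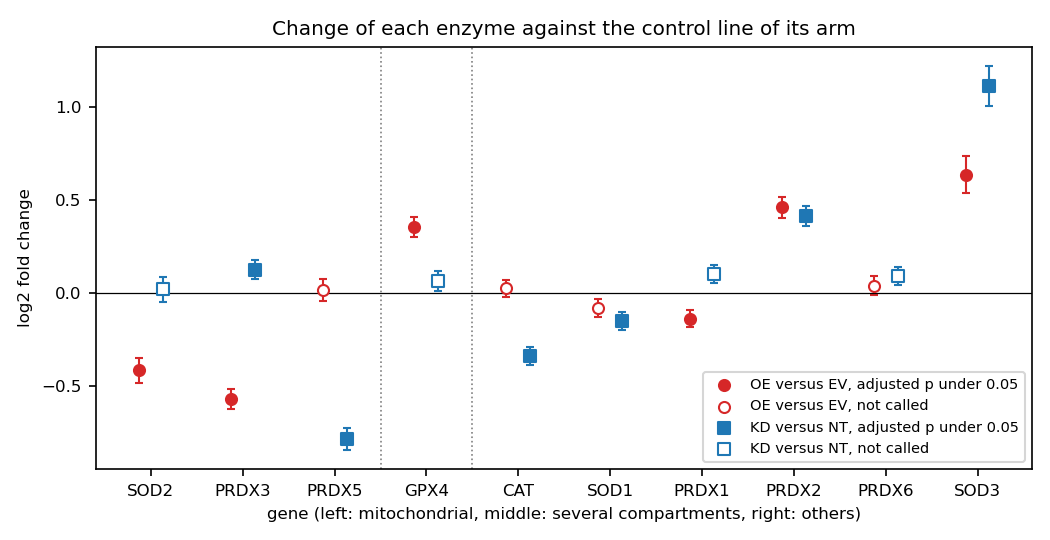
log2 fold change (vertical axis) of each enzyme for OE against EV (circles) and KD against NT (squares), with bars of 1 standard error from edgeR. Filled symbols have an adjusted p under 0.05. Mitochondrial SOD2 and PRDX3 were lower in OE, and mitochondrial PRDX5 was lower in KD.

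SOD2, the manganese dismutase of the mitochondrial matrix, was 28.5 and 27.95 CPM in EV and 21.2, 20.5 and 21.7 in OE. It was 26.2 and 25.2 in NT and 25.8, 26.1 and 26.2 in KD. The 3 OE samples lay below all 7 others, and NT and KD overlapped. SOD2 fell by 0.42 on the log2 scale in OE (SE 0.07, edgeR adjusted p = 1.58e-05), a change of -25.1%. In KD its log2 fold change was 0.02 (SE 0.07, edgeR adjusted p = 0.823), and the interaction was -0.44 (SE 0.10, edgeR adjusted p = 0.0006). Without the controls SOD2 was lower in OE than in KD (log2 fold change -0.30, SE 0.06, edgeR adjusted p = 0.000161).

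The row for SOD2 needs care, because the gene is long and shared. In GENCODE v44 on GRCh38 it spans chr6:159669069-159762529 on the minus strand with 18144 exon bases, of which 437 overlap exons of WTAP, and others exons of ACAT2, on the opposite strand, and 939 overlap the non-coding SOD2-OT1. Whether the counting used strand is not given in the sources used here, so reads from these stretches cannot be told apart. WTAP and ACAT2 had log2 fold changes of -0.06 and 0.08 in OE against EV. In KD against NT they had 0.13 and 0.70, and in the interaction -0.19 and -0.62. SOD2-OT1, with 7 to 24 counts per sample, had 0.53 in OE and 0.75 in KD. The part of shared reads in the SOD2 values was not tested. The 13 rows of pseudogenes of SOD1, SOD2 and the peroxiredoxins that were looked up had no more than 6 counts in any sample.

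SOD1, the copper and zinc dismutase, was 158 and 155 CPM in NT and 137, 143 and 143 in KD. It was 133.9 and 127 in EV and 120, 124 and 127 in OE. SOD1 was highest in the NT samples, and the other 3 groups lay below them. It fell in KD by 0.15 on the log2 scale (SE 0.05, edgeR adjusted p = 0.0085), but without NT replicate 1 the adjusted p was 0.0804. In OE its log2 fold change was -0.08 (SE 0.05, edgeR adjusted p = 0.171). The controls themselves differed, EV being below NT by a log2 fold change of -0.26 (SE 0.05, edgeR adjusted p = 0.00035).

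SOD3, the secreted dismutase, was the dismutase with the fewest counts. It was 6.75 and 7.51 CPM in NT against 14.3, 17.3 and 14.8 in KD, and 10.5 and 11.2 CPM in EV against 16.03, 18.1 and 16.7 in OE. Every KD and OE sample lay above every control sample, and EV lay above NT. SOD3 rose 2.17-fold in KD (log2 fold change 1.12, SE 0.11, edgeR adjusted p = 2.98e-09) and 1.56-fold in OE (0.64, SE 0.10, edgeR adjusted p = 9.26e-06). The rise was smaller in OE, with an interaction of -0.48 (SE 0.15, edgeR adjusted p = 0.0101), though the adjusted p was 0.0737 without NT replicate 1 and 0.0533 without EV replicate 2. OE and KD overlapped when compared without controls (log2 fold change 0.13, SE 0.08, edgeR adjusted p = 0.179).

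CAT, the peroxisomal enzyme that splits hydrogen peroxide with no reducing partner, changed in 1 arm. It was 144 and 146 CPM in NT and 111, 118 and 114 in KD, against 138.5 and 137.7 in EV and 137, 141 and 143.5 in OE. The KD samples lay below all 7 others, which spanned 137 to 146 CPM. CAT fell by 0.34 on the log2 scale in KD (SE 0.05, edgeR adjusted p = 8.71e-07), its log2 fold change in OE was 0.03 (SE 0.05, edgeR adjusted p = 0.679) and the interaction was 0.36 (SE 0.07, edgeR adjusted p = 6.94e-05).

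PRDX3, the peroxiredoxin of the mitochondrial matrix, had the largest fall in OE. It was 166 and 165 CPM in EV and 111, 108 and 116 in OE. It was 185 and 182 in NT and 209, 186 and 205 in KD. The OE samples lay below all others by more than the spread of any group, and the lowest KD sample was close to NT. PRDX3 fell by 0.57 on the log2 scale in OE (SE 0.05, edgeR adjusted p = 3.3e-09), a change of -32.7%. In KD the log2 fold change was 0.12 (SE 0.05, edgeR adjusted p = 0.0399), a call that was lost in 10 of the alternatives, with an adjusted p of 0.19 without KD replicate 1, 0.175 without NT replicate 2 and 0.106 without NT replicate 1. The interaction was -0.70 (SE 0.07, edgeR adjusted p = 3.52e-08).

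PRDX5, an atypical peroxiredoxin found mainly in mitochondria, moved in the other arm. It was 221 and 224 CPM in NT and 117, 144 and 126 in KD, and 230 and 223 in EV against 226, 239 and 221 in OE. The KD samples lay far below the other 7, which spanned 221 to 239 CPM. PRDX5 fell by 0.79 on the log2 scale in KD (SE 0.06, edgeR adjusted p = 6.79e-11), a change of -42.0% and the largest fall of the 10 enzymes in either arm. In OE the log2 fold change was 0.02 (SE 0.06, edgeR adjusted p = 0.84), and it was -0.08 when libraries were scaled by size alone. The interaction was 0.80 (SE 0.09, edgeR adjusted p = 5.05e-08).

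PRDX2, a cytosolic peroxiredoxin abundant in red cells, was 319 and 331 CPM in NT and 449, 443 and 407 in KD, and 338 and 335.5 in EV against 460, 497 and 434 in OE. Every KD and OE sample lay above every control sample. PRDX2 rose 1.38-fold in OE (log2 fold change 0.46, SE 0.05, edgeR adjusted p = 2.14e-07) and 1.33-fold in KD (0.41, SE 0.05, edgeR adjusted p = 6.07e-07), with an interaction of 0.05 (SE 0.08, edgeR adjusted p = 0.648). PRDX2 and SOD3 were thus the enzymes called higher with CPT1A both lowered and raised, each arm against its own control.

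PRDX1, the other cytosolic peroxiredoxin of the same class, was 324 and 313 CPM in EV and 296, 292 and 281 in OE, and 333 and 334 in NT against 350, 378 and 348 in KD. All OE samples lay below EV and all KD samples above NT. It fell by 0.14 on the log2 scale in OE (SE 0.05, edgeR adjusted p = 0.0169), and without EV replicate 1 or OE replicate 3 the adjusted p was 0.227 and 0.0722. In KD the log2 fold change was 0.10 (SE 0.05, edgeR adjusted p = 0.064), and it was called in 5 of the alternatives, library size only among them. The interaction was -0.24 (SE 0.07, edgeR adjusted p = 0.00476), and 0.058 was its adjusted p without EV replicate 1. Exons of PRDX1 share 501 bases with MMACHC on the opposite strand, which had a log2 fold change of 0.44 in OE against EV. The raw counts of MMACHC summed to 1971 over the 2 NT samples and 4522 over the 3 KD samples. The part of shared reads in the PRDX1 values was not tested.

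PRDX6, which also has phospholipase activity, was 322 and 313 CPM in NT against 334, 359 and 323 in KD, and 377 and 362 CPM in EV against 369, 397 and 374 in OE. All EV and OE samples lay above all NT and KD samples, KD lay above NT, and OE overlapped EV. Neither log2 fold change was called, at 0.04 in OE (SE 0.05, edgeR adjusted p = 0.54) and 0.09 in KD (SE 0.05, edgeR adjusted p = 0.12). With library size only, the first was -0.06 and the second, at 0.13, was called.

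GPX4, which reduces lipid peroxides in membranes and guards cells from ferroptosis, was 196 and 200 CPM in EV and 243, 268 and 248 in OE, and 181 and 184 in NT against 185, 205 and 183 in KD. The OE samples lay above all others, and KD overlapped NT. GPX4 rose 1.28-fold in OE (log2 fold change 0.35, SE 0.05, edgeR adjusted p = 5.77e-06), its log2 fold change in KD was 0.07 (SE 0.05, edgeR adjusted p = 0.298) and the interaction was 0.29 (SE 0.07, edgeR adjusted p = 0.00303). The interaction was 0.15 with an adjusted p of 0.0567 when libraries were scaled by size alone.

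The controls of both arms were compared because their difference enters the interaction. Between EV and NT, SOD3 and PRDX6 were called higher and SOD1 and PRDX3 lower, that is 2 and 2 of 10, against 18.5% and 15.5% of all tested genes. PRDX6 differed by 0.22 (SE 0.05, edgeR adjusted p = 0.0029) and PRDX3 by -0.15 (SE 0.06, edgeR adjusted p = 0.0442), and both calls were lost without EV replicate 1, at 0.0737 and 0.126. The call of PRDX3 was also lost when any other control sample was left out, and with an offset for GC content its difference was -0.02. With the same offset SOD2 was called higher in EV than in NT (log2 fold change 0.24, edgeR adjusted p = 0.00907), against 0.13 without it. OE and KD were also compared without controls, where 4 enzymes were called higher (CAT, PRDX5, PRDX6, GPX4) and 4 lower (SOD1, SOD2, PRDX1, PRDX3), against 29.2% and 30.6% of all tested genes. For this comparison library size alone gave a median of -0.15 over all genes in place of -0.02, and 34.5% of calls higher in place of 48.8%.

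The mitochondrial genes were set against those of other compartments by the mean log2 CPM of SOD2, PRDX3 and PRDX5 minus that of the 6 others in each sample. This difference was -0.37 and -0.42 in NT against -0.81, -0.86 and -0.77 in KD, and -0.46 and -0.47 in EV against -0.92, -1.0 and -0.92 in OE. Every KD and OE sample was below every control sample. The group mean was -0.47 ± 0.01 (SD, n = 2) in EV and -0.95 ± 0.05 (SD, n = 3) in OE, and -0.39 ± 0.03 (SD, n = 2) in NT and -0.81 ± 0.05 (SD, n = 3) in KD. The differences of group means, -0.48 in OE and -0.42 in KD, were of similar size, with no test made because the genes had been chosen with results known.

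That similar shift came in part from different mitochondrial genes and in part from a rise of other genes in both arms. Of the 6 others, SOD3 and PRDX2 rose in KD (1.12 and 0.41) and in OE (0.64 and 0.46), which lowers the difference. Without PRDX5 the shift was -0.65 in OE and -0.13 in KD, and PRDX5 alone against the 6 others gave -0.14 in OE and -0.99 in KD. SOD2 alone gave -0.57 and -0.18, and PRDX3 alone -0.73 and -0.08. In KD neither gene was itself lower than in NT, with log2 fold changes of 0.02 and 0.12. Without SOD3, which rose in both arms, the shift was -0.39 in OE and -0.24 in KD. With GPX4 counted as mitochondrial it was -0.31 and -0.35, and the small difference between the arms turned from -0.06 to 0.04. PRDX3 and PRDX5 together held 29.4% ± 0.07 (SD, n = 2) of the summed counts of the 5 peroxiredoxins in NT, 22.6% ± 0.82 (SD, n = 3) in KD, 27.7% ± 0.12 (SD, n = 2) in EV and 23.1% ± 0.49 (SD, n = 3) in OE. Counts from the genes of the mitochondrial genome itself made up 10.3% to 11.5% of the KD libraries and 12.5% to 13.6% of the others.

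**Figure D3:**
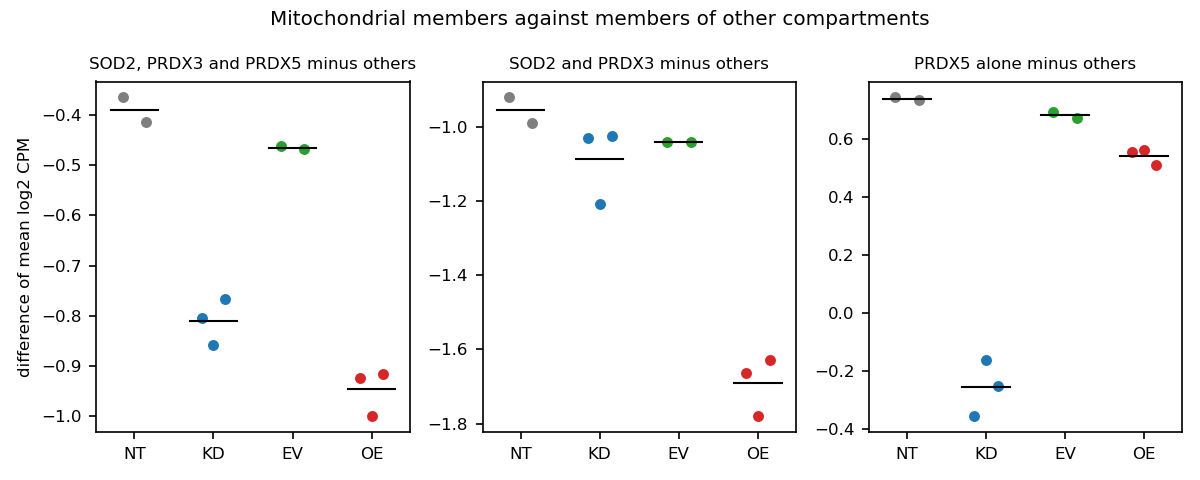
Mean log2 CPM of mitochondrial enzymes minus that of SOD1, SOD3, CAT, PRDX1, PRDX2 and PRDX6 in each sample (vertical axes, which differ between panels). Points are samples and black lines group means. OE samples are lowest for SOD2 with PRDX3 and KD samples for PRDX5.

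The summed level of the 10 enzymes was 1899 ± 4.76 CPM (SD, n = 2) in NT, 1947 ± 65.7 (SD, n = 3) in KD, 1922 ± 27.9 (SD, n = 2) in EV and 2028 ± 65.7 (SD, n = 3) in OE. The order of these sums depended on the scaling. With library size only, a setting added after the data were seen, they were 1919 ± 8.08 (SD, n = 2) in NT, 2017 ± 27.2 (SD, n = 3) in KD, 1948 ± 17.6 (SD, n = 2) in EV and 1921 ± 46.9 (SD, n = 3) in OE, which puts OE below EV. The 3 dismutases summed to 161 ± 4.16 CPM (SD, n = 3) in OE against 169 ± 4.90 (SD, n = 2) in EV, and the 5 peroxiredoxins to 1473 ± 54.6 against 1417 ± 25.2.

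Levels of different genes were compared as CPM per kilobase of the canonical transcript, averaged over the 10 samples. PRDX2 was first at 434 CPM per kilobase, followed by PRDX1 (344), GPX4 (246), PRDX5 (229), PRDX6 (209), SOD1 (153), PRDX3 (105), CAT (58.0), SOD3 (9.41) and SOD2 (1.76). The ranges over samples overlapped for each neighbouring pair from PRDX2 to PRDX6 and for SOD1 and PRDX3, and did not overlap for PRDX6 and SOD1, PRDX3 and CAT, CAT and SOD3, and SOD3 and SOD2. The place of SOD2 rests on its canonical transcript of 14167 bases. With a coding transcript of 990 bases the same counts give 25.2 CPM per kilobase, which lies above SOD3, and the files do not say which transcript was read. By merged exons PRDX5 was first, at 229 CPM per kilobase, and the order from SOD1 to SOD2 was unchanged.

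A pair of features of the genes themselves moved with the changes in OE and are given here as values. The first is the chromosome. PRDX3 lies at chr10:119167720-119178812, and of the 40 tested genes nearest to it, 20 on each side from chr10:113854661-123058290, 38 were lower in OE than in EV and 35 were called lower, with a median log2 fold change of -0.77. PRDX3 itself, at -0.57, lay above that median. In KD against NT the same neighbours had a median of -0.17 while PRDX3 had 0.12. The neighbours of SOD2 on chromosome 6 had a median of 0.01 in OE against EV, with 8 called higher and 7 lower, while SOD2 had -0.42. Those of PRDX5 on chromosome 11 had a median of 0.25 in KD against NT, while PRDX5 had -0.79. GPX4 on chromosome 19, at 0.35 in OE, lay close to the median of its neighbours, 0.33, of which 30 of 40 were called higher. The copy number of these segments was not measured, and its part in the results was not tested.

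**Figure D4:**
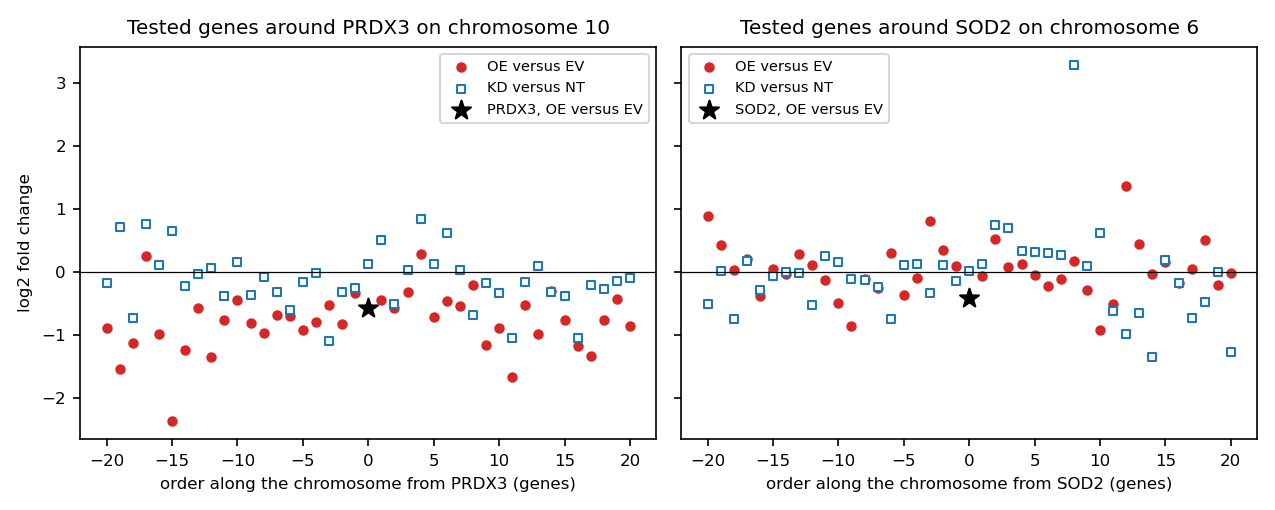
log2 fold change (vertical axis) of the 20 tested genes on each side of PRDX3 and of SOD2 in order along the chromosome (horizontal axis), for OE against EV (red) and KD against NT (blue squares), with the enzyme's own OE value as a star. Of the 40 genes around PRDX3, 38 are below 0 in OE, while those around SOD2 lie on both sides of 0.

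The second is base composition, taken as the GC content of the canonical transcript of each gene. For SOD2 that transcript has 14167 bases, and which transcript was read is not known. The GC class of SOD2 and its values with a GC offset rest on that transcript. In OE against EV the median log2 fold change was -0.29 among the tested genes of the GC class (1 of 10 of equal size) that holds PRDX3 (40.2% GC), -0.20 in that of SOD2 (41.5%), 0.19 in that of PRDX2 (58.2%) and 0.29 in that of GPX4 (62.3%) and SOD3 (68.4%). The trend was not particular to OE. In the same order these medians were -0.148, -0.104, 0.162 and 0.131 in KD against NT. Between the controls, EV against NT, they were -0.151, -0.105, 0.148 and 0.17. With an offset for GC content, chosen after these values were seen, the changes in OE shrank to -0.20 for SOD2 (edgeR adjusted p = 0.0114), -0.30 for PRDX3 (edgeR adjusted p = 5e-07), 0.24 for PRDX2 and 0.28 for SOD3. GPX4 at 0.09 and PRDX1 at -0.09 were then no longer called (edgeR adjusted p = 0.0739 and 0.0591), while PRDX5 was called lower at -0.23, PRDX6 higher at 0.16 and CAT higher at 0.11. In KD the falls of PRDX5 (-0.98) and CAT (-0.33) and the rise of SOD3 (0.96) were still called, PRDX2 was 0.22 in place of 0.41, PRDX3 was called higher at 0.26 (edgeR adjusted p = 1.12e-06) and GPX4 lower at -0.12. SOD1 was still called lower in KD at -0.12 and PRDX6 was newly called higher at 0.13, so that 8 of the 10 were called. With that offset 4739 of the 17230 tested genes were called higher in KD and 5233 lower. All 7 interactions were still called, together with that of SOD1 (0.15). Of the same 17230 genes, 4058 had an interaction called above 0 and 4064 below. Between OE and KD, SOD2 at -0.09 (edgeR adjusted p = 0.191) and SOD1 at -0.08 (edgeR adjusted p = 0.0673) were no longer called, while SOD3 (-0.26) and PRDX2 (-0.10) were called lower. The mitochondrial shift was -0.36 in OE and -0.35 in KD. Whether the trend with GC content arose in the cells or in the libraries was not tested.

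**Figure D5:**
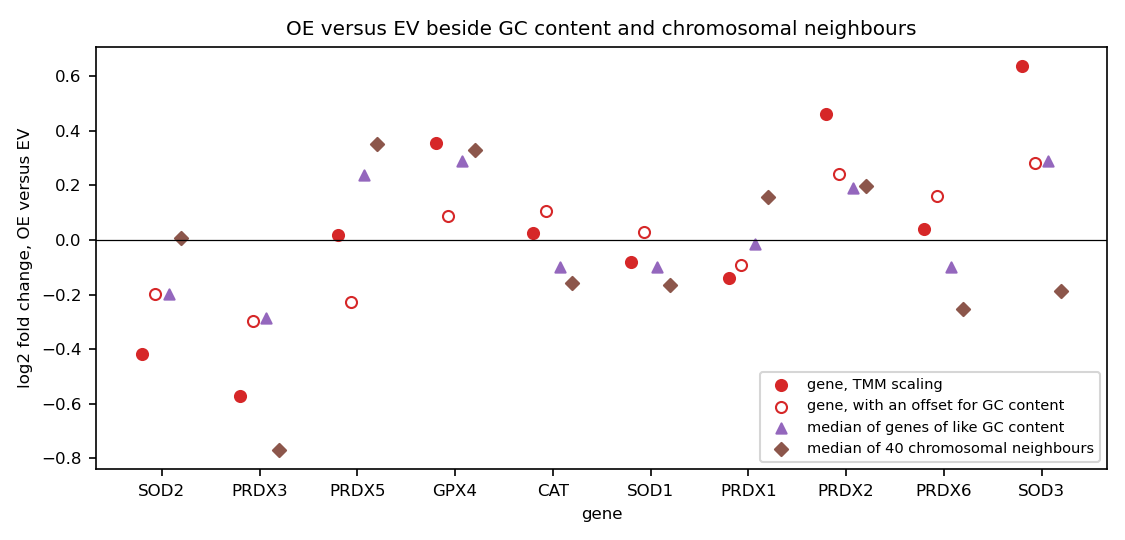
log2 fold change of OE against EV (vertical axis) for each enzyme with TMM scaling (filled circles) and with a GC offset (open circles), beside the median of tested genes in the same of 10 classes of GC content (triangles) and of the 40 nearest tested genes (diamonds). With the offset SOD2 and PRDX3 stay below 0 and GPX4 comes close to 0.

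The enzymes fell into patterns over the 10 samples, which share 4 lines and are given as a description only. CAT and PRDX5, both lowest in KD, had a Pearson r of 0.97, SOD3 and PRDX2 0.91, SOD2 and PRDX3 0.84, and PRDX3 and GPX4 -0.95. Among 9971 genes of sufficient level, the 5 most like SOD2 were TMEM168 (0.99), PDZD8 (0.98), SEC23IP (0.98), RIC8B (0.98) and SRPK2 (0.98). Of these, PDZD8 and SEC23IP lie on chromosome 10, both among the 40 neighbours of PRDX3 described above. The 3 most opposite were TRIM41 (-0.99), ANP32B (-0.98) and BAHCC1 (-0.98).

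The partners of these enzymes were taken from 4 lists. Of 19 genes of the thioredoxin and glutathione systems, which recharge peroxiredoxins and glutathione peroxidases, all were tested, 6 were called higher and 7 lower in OE (25.6% and 26.4% of all tested genes), and 11 higher and 2 lower in KD (29.1% and 28.4% of all). Their interaction was called above 0 for 3 and below 0 for 13 (20.3% and 24% of all), and its median was -0.44 against -0.02 over all genes. TXNIP, which binds and inhibits thioredoxin, was 4.78 ± 0.07 CPM in NT (SD, n = 2), 141 ± 5.24 in KD (n = 3), 8.97 ± 0.39 in EV (n = 2) and 33.5 ± 11.5 in OE (n = 3). It rose in both arms, by a log2 fold change of 4.88 in KD (SE 0.18, edgeR adjusted p = 1.51e-16) and 1.91 in OE (SE 0.18, edgeR adjusted p = 4.65e-09). GSR, which regenerates reduced glutathione, was 212 ± 2.63 CPM in NT against 444 ± 8.68 in KD, and 302 ± 5.51 CPM in EV against 401 ± 13.4 in OE, and was called higher in both arms.

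Among the sestrins, stress proteins linked to peroxiredoxin repair, SESN2 was 113 ± 3.57 CPM in NT and 34.3 ± 0.92 in KD, against 95.0 ± 2.00 in EV and 124 ± 9.53 in OE, a fall in KD and a rise in OE. SESN1 fell in OE (-0.85) and SESN3 in both arms (-1.03 in KD and -0.59 in OE). SRXN1, sulfiredoxin, which restores over-oxidized peroxiredoxins, rose in OE (0.81) from 2.75 CPM in EV. NNT, the mitochondrial transhydrogenase that supplies NADPH in the matrix, fell in OE (-0.63) and had a log2 fold change of -0.01 in KD. NNT was also called higher in EV than in NT (0.38). GLRX, a glutaredoxin at 2.22 CPM in NT and 4.31 in KD, rose in KD (0.97).

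Of 9 listed peroxidases beyond the 10 and the SOD1 copper chaperone, 4 were tested, of which 2 were called higher and the other 2 not called in OE (25.6% higher among all), and 1 was called higher and 1 lower in KD (29.1% and 28.4% among all). PRDX4, the peroxiredoxin of the endoplasmic reticulum, was 108 ± 4.64 CPM in EV and 155 ± 6.20 in OE, and rose in OE (0.52) and KD (0.21). GPX1, the main cytosolic and mitochondrial glutathione peroxidase, rose in OE (0.34), but with the GC offset the change was 0.08 and not called. GPX8, a peroxidase of the endoplasmic reticulum, fell in KD (-0.69).

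Of 20 listed producers of superoxide or peroxide, 11 were tested, 3 were called higher and 1 lower in OE (25.6% and 26.4% of all tested genes), and 4 higher and 3 lower in KD (29.1% and 28.4% of all). MAOA, the outer mitochondrial membrane oxidase that releases hydrogen peroxide, was 434 ± 15.5 CPM in NT and 328 ± 9.44 in KD, a fall of the order of that of CAT (-0.40 against -0.34). SMOX, spermine oxidase, fell in KD (-0.92) and rose in OE (0.49, not called with the GC offset). ERO1B, an oxidase of the endoplasmic reticulum, fell in KD (-0.60) and its relative ERO1A rose (0.46). ACOX3 (-0.22 in OE, 0.30 in KD), ERO1A in OE (0.18) and PAOX (0.38 in KD) had calls that were lost in some alternatives. XDH, with at most 61 counts, rose in OE (1.71), and DUOX1 had at most 26 counts.

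Of 8 regulators linked to SOD2 by general knowledge, all were tested, 4 were called higher and 1 lower in OE, and 3 higher and 2 lower in KD. Called in either direction were thus 5 of 8 in each arm, against 52.0% of all tested genes in OE and 57.5% in KD. FOXO3, a transcription factor that activates SOD2 and CAT, was 121 ± 7.86 CPM in NT against 79.5 ± 5.05 in KD, and 127 ± 0.95 CPM in EV against 76.9 ± 0.93 in OE. It fell in both arms (-0.72 in OE, edgeR adjusted p = 2.13e-10, and -0.60 in KD, edgeR adjusted p = 1.15e-09), while SOD2 was called lower in OE and CAT in KD, each with a called interaction. RELA, an NF-kB subunit, rose in OE (0.59), and its call in KD (0.15) turned to -0.04 with the GC offset. KEAP1, which marks NRF2 for degradation, rose in OE (0.39) and in KD (0.22, not called with the GC offset), and NFE2L2, the gene of NRF2, fell in KD (-0.32). PPARGC1A, a coactivator of mitochondrial genes, had at most 61 counts and rose in KD (1.67).

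The GC offset also moved the size of partner changes that were still called. In OE against EV, SESN2 was 0.15 in place of 0.38, SESN3 -0.22 in place of -0.59, NNT -0.35 in place of -0.63, KEAP1 0.15 in place of 0.39 and RELA 0.37 in place of 0.59, while ERO1A was 0.54 in place of 0.18 and ACOX3 -0.36 in place of -0.22. In KD against NT, PRDX4 was 0.10 in place of 0.21 and ERO1B -0.34 in place of -0.60.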

How the data were processed

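RNA was measured in 10 samples of LNCaP-C4-2 (2 NT, 3 KD, 2 EV and 3 OE), grouped by the sample labels. The authors made the deposited counts, which are whole raw counts per gene symbol, from poly(A) libraries read in pairs. They trimmed reads with BBDuk, discarded those under 50 bases, and mapped with STAR 2.6.0a (version from the submitters' processing notes) to the Ensembl hg38.p12 transcriptome. Strandedness and the treatment of multiply mapped reads are not given in the sources used here.

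After filterByExpr and TMM scaling, edgeR 4.0.16 (R 4.3.3) was run with its quasi-likelihood F test and 1 mean per group over all 10 samples, with Benjamini-Hochberg adjustment over the 17230 tested genes. SE are the log2 fold change divided by the root of F. CPM are TMM-scaled, log2 CPM used a prior count of 2, and SD are between samples. A floor of 3 counts is 0.0995 to 0.136 CPM. The steps were tested on simulated data. 1 gene of the marker list is not reported here. The members, partner lists and named genes were chosen with earlier results of these data known. Named genes were all 10 members, CPT1A, the 5 genes most and 3 least correlated with SOD2 (average log2 CPM of at least 3), and, of each partner list, up to 4 called in the interaction with the largest change and up to 2 more called in each arm. Neighbour medians, GC values and levels per kilobase used GENCODE v44 on GRCh38, joined on the symbol. A position was found for 13992 (81.2%) and a GC content for 14018 (81.4%) of the tested genes.

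Alternatives were DESeq2 1.42.0 size factors and its Wald test, library size only, no filter or at least 10 counts in every sample, limma-voom (limma 3.58.1), a replicate block, each arm alone, an adjusted p under 0.0001, other members of the compartment groups, and each sample left out. The GC offset, the chromosome 10 neighbours and the sums by library size only were added after the data were seen.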

Additional observations from a re-analysis of the deposited data

Results flagged for a closer look

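The change in OE against EV differed from that in KD against NT, by an edgeR interaction with an adjusted p under 0.05, for 7 of the 10 enzymes, where 44.3% of all tested genes were called. Partners were named in part because they were called in this interaction, so their values are a description and their number is no result. Among the enzymes the interaction log2 fold changes were -0.44 for SOD2, -0.48 for SOD3, 0.36 for CAT, -0.24 for PRDX1, -0.70 for PRDX3, 0.80 for PRDX5 and 0.29 for GPX4. PRDX3 and PRDX5, both mitochondrial, thus differed between the arms in opposite directions, by 1.501 on the log2 scale when PRDX5 is taken minus PRDX3.

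In the thioredoxin and glutathione systems the interaction was -2.97 for TXNIP, 2.10 for SESN2, -1.24 for GLRX, -0.77 for SESN1, -0.62 for NNT, -0.66 for GSR and 0.44 for SESN3. Among other peroxidases it was 0.69 for GPX8, 0.31 for PRDX4 and 0.26 for GPX1. Among producers of superoxide and peroxide it was 2.61 for XDH, -1.51 for DUOX1, 1.41 for SMOX, 0.58 for ERO1B, -0.52 for ACOX3, -0.28 for ERO1A and 0.34 for MAOA. Among regulators of SOD2 it was -2.39 for PPARGC1A, 0.44 for RELA and 0.27 for NFE2L2. A difference between the controls entered some of these values. EV against NT was -0.60 for GPX8, 1.70 for DUOX1, 0.47 for ACOX3 and -0.78 for SESN3. Without the controls, OE against KD was 0.09 for GPX8, 0.19 for DUOX1 and -0.04 for ACOX3, none called. For SESN3 it was -0.34, opposite in sign to its interaction. SESN2 (1.85) and SMOX (0.998) were called between OE and KD in the direction of their interaction. XDH, DUOX1 and PPARGC1A had 61 counts or fewer in every sample, and the adjusted p of DUOX1 was 0.187 without NT replicate 2. The call of ERO1A was lost in 9 of 18 alternatives, that of NFE2L2 in 6 of 18, that of DUOX1 in 4 of 17 and that of GPX1 in 2 of 18. Among the enzymes, the call of SOD3 was lost in 2 of 18 and those of PRDX1 and GPX4 in 1 of 18 each.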

How the results depend on the processing

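Over 104 results for single genes, 1921 alternative values were computed, of which 1806 kept their direction and their side of the threshold, 74 lost a call, 20 gained one and 21 changed direction. The members called numbered 5 to 6 in OE against EV, 4 to 6 in KD against NT, 6 to 7 in the interaction, 2 to 5 in EV against NT and 8 to 10 in OE against KD when each sample was left out, and the lowest count for EV against NT was reached without EV replicate 1. At an adjusted p under 0.0001 there were 3 in the interaction, 0 in EV against NT by edgeR (4 at an unadjusted p under 0.05, 1 by DESeq2 and 0 by limma-voom at the same limit) and 5 in OE against KD. By edgeR at that limit, 15.9% of all tested genes were called in the interaction, 8.16% in EV against NT and 31.9% in OE against KD. With every sample kept and a limit of 0.05, edgeR called 52.0% of all in OE against EV and 57.5% in KD against NT. The same share was 44.3% in the interaction, 34.1% in EV against NT and 59.8% in OE against KD. With the replicate block, PRDX3 in KD against NT was 0.10 (adjusted p 0.0751), and same-numbered samples did not deviate together (mean r 0.028 over 13 pairs, against -0.013 over 24 others), so the numbers were not taken as pairs.

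With library size only, direction changed in OE against EV for CAT (-0.073), PRDX5 (-0.082) and PRDX6 (-0.059), in the interaction for SOD1 (-0.063) and PRDX2 (-0.087), and in OE against KD for PRDX2 (-0.033). With the GC offset it changed in OE against EV for SOD1 (0.028) and PRDX5 (-0.23), in KD against NT for GPX4 (-0.12) and RELA (-0.043), in the interaction for PRDX6 (0.024), in EV against NT for PRDX2 (-0.12), PRDX5 (-0.15) and GPX4 (-0.065), and in OE against KD for SOD3 (-0.26) and PRDX2 (-0.10). With each sample left out, PRDX5 ranged from -0.014 to 0.053 in OE against EV and from -0.007 to 0.046 in EV against NT, SOD2 from -0.006 to 0.05 in KD against NT and PRDX2 from -0.004 to 0.094 in the interaction.

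The mitochondrial shift in OE, KD and their difference was -0.65, -0.13 and -0.52 without PRDX5, -0.31, -0.35 and 0.038 with GPX4, -0.39, -0.24 and -0.15 without SOD3, and -0.36, -0.35 and -0.007 with the GC offset. The cause of these moves was not tested. Comparisons with a control rest on 2 control samples per arm.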
